A study of Mus musculus with 5 samples.

Results

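Lpl, the gene of lipoprotein lipase, and 8 genes of fatty acid synthesis, desaturation, elongation and storage (Fasn, Acaca, Acly, Scd1, Scd2, Elovl6, Srebf1 and Plin2) were followed in mouse mammary epithelial cells with and without an sgRNA against Mef2d, the gene of a MADS-box transcription factor. These 9 genes were among the 12934 genes listed in the count table. Lpl was chosen by its low level in the sgMef2d libraries, so its values are given as a description with no test, while the other genes were taken because of their place in fatty acid metabolism. RNA was sequenced from EpH4 cells, an immortalized line of mouse mammary epithelium, that expressed Cas9 and carried either a control sgRNA (sgControl, 3 libraries) or an sgRNA against Mef2d (sgMef2d, 2 libraries), so both groups had Cas9 and the drug selection in common. The study used more than 1 sgRNA against Mef2d, and the labels do not say which of them each library carries or whether the libraries of a group came from separate cultures, so p-values measure the spread between these libraries, which may be technical.

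Lipoprotein lipase is secreted and acts on the endothelial surface of capillaries, where it releases fatty acids from the triglycerides of circulating lipoproteins. In lactating mammary gland it supplies epithelial cells with preformed fatty acids for milk fat. The same cells also make fatty acids from citrate: Acly cuts citrate to acetyl-CoA, Acaca carboxylates it to malonyl-CoA, and Fasn builds palmitate from these units. Elovl6 lengthens palmitate, the desaturases Scd1 and Scd2 introduce a double bond, and Plin2 coats the lipid droplets in which triglycerides are kept. Srebf1 encodes SREBP-1, a membrane-bound transcription factor that is released by cleavage and switches on most of these enzymes.

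The counts summed to between 13601145 and 20498563 per library, so that 3 counts were worth 0.146 to 0.221 CPM (counts-per-million). With edgeR's quasi-likelihood test, 992 of 12483 genes tested (7.95%) passed an adjusted p of 0.05 between sgMef2d and sgControl, 3.67% higher and 4.28% lower in sgMef2d. Mef2d itself was at 64.2, 77.0 and 71.6 CPM in the sgControl libraries and at 64.1 and 65.8 CPM in the sgMef2d libraries, with a log2 fold change of -0.12 (SE 0.0799, adjusted p 0.4), and of -0.19 (adjusted p 0.00549) once the library of sgControl replicate 1, described next, was left out. An sgRNA changes the DNA and need not change the mRNA level, so this value does not check the labels. The library of sgControl replicate 1 stood apart, since its counts differed from those of replicates 2 and 3 by a chi-square of 10.6 and 13.7 per degree of freedom, whereas replicates 2 and 3 differed by 2.01. Across 10264 genes its deviation from the mean of all libraries had a Spearman correlation of -0.338 with transcript length, against 0.404 and 0.467 in replicates 2 and 3 and -0.218 and -0.272 in the sgMef2d libraries. Genes are not independent replicates. The members are therefore also given without sgControl replicate 1, as are the lists whose counts changed without it.

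Lpl (ENSMUSG00000015568.16, chr8:68880491-68907448 on the plus strand of GRCm38) was the gene of the group that differed most. Its level was 25.8, 30.7 and 32.2 CPM in the sgControl libraries, taken in the order of their replicate numbers as throughout, and 9.81 and 6.80 CPM in the sgMef2d libraries. Both sgMef2d libraries lay far below all sgControl libraries. The mean of sgControl was 29.6 ± 3.34 CPM (SD, n = 3). That of sgMef2d was 8.31 ± 2.13 CPM (SD, n = 2), which was 3.56-fold lower. The fitted log2 fold change was -1.81 (SE 0.152, 95% interval -2.14 to -1.47), which placed Lpl at rank 20 from the lowest of the 12483 genes.

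The counts behind these levels were moderate, with 530, 433 and 438 counts in the sgControl libraries and 167 and 101 in the sgMef2d libraries. The exact 95% Poisson intervals of the sgMef2d libraries, which cover counting error only, were 8.38 to 11.4 CPM and 5.54 to 8.26 CPM. They did not overlap, so the sgMef2d libraries differed from each other in Lpl by more than counting error. When sgControl replicate 1 was left out, Lpl was at -1.90 on the log2 scale. With sgMef2d replicate 2 as the only sgMef2d library it was -2.12, and with replicate 1 as the only one it was -1.58. Of its transcript sequence, 1.14% of 50-base words also occurred in other genes.

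**Figure D1:**
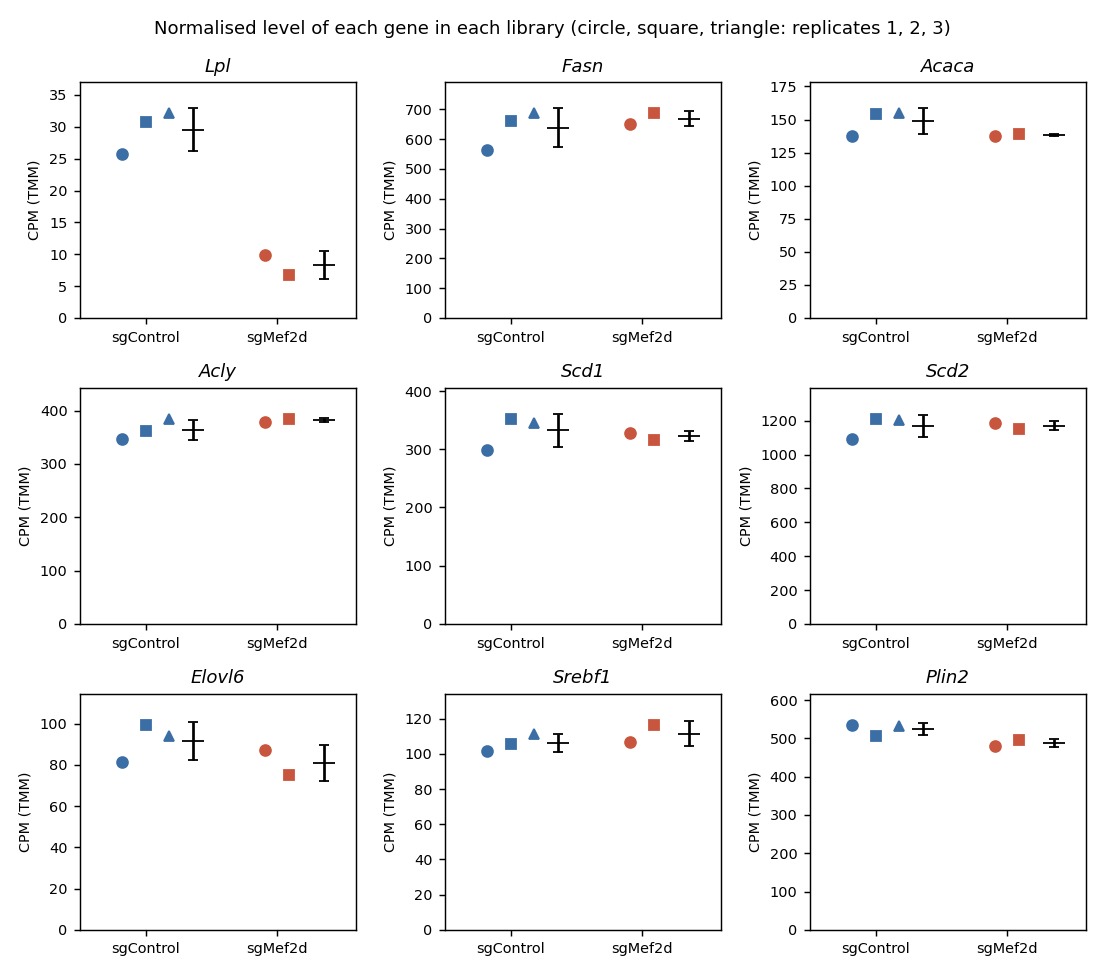
Level of each of the 9 genes in every library, in CPM after TMM normalisation, for sgControl (3 libraries) and sgMef2d (2 libraries). Each panel has its own scale. Lpl lay between 25.8 and 32.2 CPM in sgControl and between 6.80 and 9.81 CPM in sgMef2d, whereas the libraries of Fasn, Acly, Scd1, Scd2, Elovl6, Srebf1 and Acaca overlapped between the groups.

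The other 8 genes stayed close to their sgControl level in the fit. None of the 8 passed the threshold in edgeR, against 7.95% of all genes tested, and 0 of 8 had an unadjusted p below 0.05, against 23.2% of all genes tested. DESeq2 and limma-voom likewise called 0 of them. The log2 fold change was above 0 for 4 genes and below 0 for 4, with a median of -0.02 against 0.00311 over all genes tested. The 95% intervals of the 8 fold changes together ran from 0.772-fold to 1.19-fold, so changes larger than these were outside the interval of every gene. The libraries of the groups overlapped for 7 of the 8 genes, the exception being Plin2, against 40.9% of all genes tested whose sgMef2d libraries both lay on 1 side of the sgControl libraries (20.5% below and 20.4% above).

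Fasn (ENSMUSG00000025153.9, chr11:120805846-120824547, minus strand) encodes the multifunctional enzyme that makes palmitate. Its level was 564, 662 and 687 CPM in sgControl and 650.5 and 686 CPM in sgMef2d, and the groups overlapped. On average Fasn was at 638 ± 65.3 CPM in sgControl (SD, n = 3), against 668 ± 25.4 CPM in sgMef2d (SD, n = 2). The log2 fold change was 0.07 (SE 0.080, 95% interval -0.11 to 0.25, adjusted p 0.65), and it was -0.01 without sgControl replicate 1 (adjusted p 0.862). Set per length, Lpl was at 4.78, 4.85 and 4.89 CPM per kilobase for every 100 of Fasn in the sgControl libraries, a nearly constant ratio, and at 1.58 and 1.03 in the sgMef2d libraries.

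The 250 bases before the start of Fasn are shown because Fasn makes the palmitate on which the elongase and desaturases act, with those of Insig1 and Hmgcs1, genes of sterol sensing and of cholesterol synthesis whose levels are described further on and which were picked after their values were seen. The sequences are from RefSeq on GRCm38.p6, 5′ to 3′ on the strand of the gene, and lie at chr11:120824548-120824797 (minus strand), chr5:28071162-28071411 (plus strand) and chr13:119690101-119690350 (plus strand). Capitals mark matches to the letters CCAAT or their reverse complement ATTGG, to the E-box CACGTG, and to TCACNCCAC, a sterol regulatory element of the kind that SREBP proteins bind.
Fasn: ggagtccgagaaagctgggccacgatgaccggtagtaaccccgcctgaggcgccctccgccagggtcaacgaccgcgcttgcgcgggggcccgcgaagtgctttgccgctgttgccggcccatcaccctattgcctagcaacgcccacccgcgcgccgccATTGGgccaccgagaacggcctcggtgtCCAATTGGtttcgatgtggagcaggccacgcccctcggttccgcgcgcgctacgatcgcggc
Insig1: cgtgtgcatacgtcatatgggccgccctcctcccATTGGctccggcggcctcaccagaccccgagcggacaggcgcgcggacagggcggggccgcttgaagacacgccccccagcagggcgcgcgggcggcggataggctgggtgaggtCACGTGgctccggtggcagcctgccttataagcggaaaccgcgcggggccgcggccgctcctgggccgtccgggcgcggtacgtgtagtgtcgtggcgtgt
Hmgcs1: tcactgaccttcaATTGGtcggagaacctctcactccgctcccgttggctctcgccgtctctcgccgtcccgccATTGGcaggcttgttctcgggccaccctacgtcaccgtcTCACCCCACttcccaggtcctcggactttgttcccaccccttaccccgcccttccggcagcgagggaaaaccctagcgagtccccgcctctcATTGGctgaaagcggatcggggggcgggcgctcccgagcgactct
The Fasn window held 3 CCAAT matches, of which the last 2 overlap on opposite strands, and no E-box or TCACNCCAC. The Insig1 window held 1 E-box and 1 CCAAT match, and the Hmgcs1 window held 1 TCACNCCAC and 3 CCAAT matches. Windows were searched for the members and for the genes past the threshold in the lists by role. Among these windows, only that of Insig1 held an E-box and only that of Hmgcs1 a TCACNCCAC. The window of Idi1, a gene of cholesterol synthesis that also fell, held CCAAT matches and neither of these.

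Of all 32851 promoter windows of this length, searched on both strands, 33.8% held CCAAT, 6.02% held CACGTG, 1.05% held TCACNCCAC and 2.92% held a MEF2 motif. Promoter windows were matched for 6 of the 9 members. Lpl, Scd1 and Scd2 had no window, so nothing is said here of their promoters. CCAAT was found in the windows of Fasn, Plin2 and some of the Srebf1 starts, and in none of those of Acaca, Acly and Elovl6. The Acaca window, at chr11:84195188-84195437, lies inside the annotated gene (chr11:84129672-84401651). It is thus not the sequence before the first start of Acaca, which was not searched. The windows of these 6 members, Lpl not among them, held 0 TCACNCCAC and 0 MEF2 matches, which says only that these letters were not in the windows.

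Acaca (ENSMUSG00000020532.18, chr11:84129672-84401651, plus strand) encodes acetyl-CoA carboxylase 1, which makes the malonyl-CoA that Fasn uses. Its level was 137, 154 and 155 CPM in sgControl and 138 and 139 CPM in sgMef2d. Replicate 1 of sgControl lay below and the other two above the sgMef2d libraries. The log2 fold change was -0.10 (SE 0.0667, adjusted p 0.391), and without sgControl replicate 1 it was -0.16 (adjusted p 0.00305). Reads of Acaca may be shared with other genes, since 30.4% of its 50-base words also occurred elsewhere in the annotated transcripts, mostly in the processed pseudogene Gm5182.

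Acly (ENSMUSG00000020917.17, chr11:100476353-100528000, minus strand), which encodes ATP citrate lyase, was at 346, 362 and 384 CPM in sgControl and at 379 and 384 CPM in sgMef2d. The sgMef2d libraries lay within or close to the upper end of the sgControl range. The log2 fold change was 0.07 (SE 0.060, adjusted p 0.527), and 0.04 without sgControl replicate 1 (adjusted p 0.498). Relative to Acaca, Fasn was at 6.41, 6.69 and 6.92 times the level per kilobase in sgControl and at 7.37 and 7.71 times in sgMef2d.

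The desaturases Scd1 and Scd2 lie in the same region of chromosome 19, with Scd4 between them, and are close copies. Scd1 (ENSMUSG00000037071.3, chr19:44394455-44407879, minus strand) was at 299, 352 and 346 CPM in sgControl and at 328 and 316 CPM in sgMef2d, with a log2 fold change of -0.04 (SE 0.0729, adjusted p 0.79). Scd2 (ENSMUSG00000025203.6, chr19:44293674-44306864, plus strand) was at 1094, 1210 and 1206 CPM in sgControl and at 1189 and 1153 CPM in sgMef2d, with a log2 fold change of 0.0033 (SE 0.0647, adjusted p 0.984). The sgMef2d libraries lay inside the sgControl range for both. Without sgControl replicate 1 the values were -0.11 for Scd1 (adjusted p 0.017) and -0.04 for Scd2 (adjusted p 0.376).

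The coding sequences of Scd1 and Scd2 are 1068 and 1077 bases long and identical at 965 of the 1068 aligned positions (90.4%), so short reads cannot always be assigned to 1 of them. The longest stretch that both share without a difference is 147 bases (coding positions 523 to 669 of Scd1 and 532 to 678 of Scd2, GENCODE M21 on GRCm38), and it is shown because reads within it carry no information on which gene they came from.
Scd1 and Scd2: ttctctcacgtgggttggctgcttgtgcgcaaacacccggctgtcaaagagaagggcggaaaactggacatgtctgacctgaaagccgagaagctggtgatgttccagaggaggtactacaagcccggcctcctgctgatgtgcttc
Of the 50-base words of each gene, 4.56% of Scd1 and 3.97% of Scd2 occurred in another gene as well. The ratio of Scd2 to Scd1 per kilobase was 3.27, 3.08 and 3.12 in sgControl and 3.24 and 3.27 in sgMef2d, so it overlapped between the groups. Scd3, a further copy with a much lower level, was at 1.36, 2.48 and 3.08 CPM in sgControl and at 2.41 and 4.24 CPM in sgMef2d (log2 fold change 0.58, adjusted p 0.343). Scd3 was lowest in sgControl replicate 1, and without that library its log2 fold change was 0.23 (adjusted p 0.567).

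Elovl6 (ENSMUSG00000041220.10, chr3:129532355-129638495, plus strand), the elongase of palmitate, was at 81.3, 99.3 and 94.1 CPM in sgControl and at 87.2 and 74.8 CPM in sgMef2d. Replicate 2 of sgMef2d had the lowest level and replicate 1 lay inside the sgControl range. With -0.17 (SE 0.0926, 95% interval -0.37 to 0.03, adjusted p 0.303) its log2 fold change was the largest in size of the 8 genes. Without sgControl replicate 1 it was -0.25 (adjusted p 0.00012).

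Srebf1 (ENSMUSG00000020538.15, chr11:60199089-60222581, minus strand) was at 101, 106 and 111 CPM in sgControl and at 107 and 116 CPM in sgMef2d, which overlapped. The log2 fold change was 0.07 (SE 0.0664, adjusted p 0.554), and 0.04 without sgControl replicate 1 (adjusted p 0.583). SREBP-1 is controlled by cleavage as well as by its mRNA, and the cleaved protein was not measured.

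Plin2 (ENSMUSG00000028494.12, chr4:86648386-86670060, minus strand), the droplet coat protein, was at 535, 507 and 532 CPM in sgControl and at 480.2 and 495 CPM in sgMef2d. It was the only one of the 8 genes whose sgMef2d libraries both lay below all sgControl libraries, as did 20.5% of all genes tested. The log2 fold change was -0.10 (SE 0.0569, 95% interval -0.23 to 0.02, adjusted p 0.303), and -0.09 without sgControl replicate 1 (adjusted p 0.0504). With the dependence on transcript length and on GC content taken out of each library, its log2 fold change was -0.15 (adjusted p 0.0273), in a fit in which 12.9% of all genes passed, 6.42% lower.

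**Figure D2:**
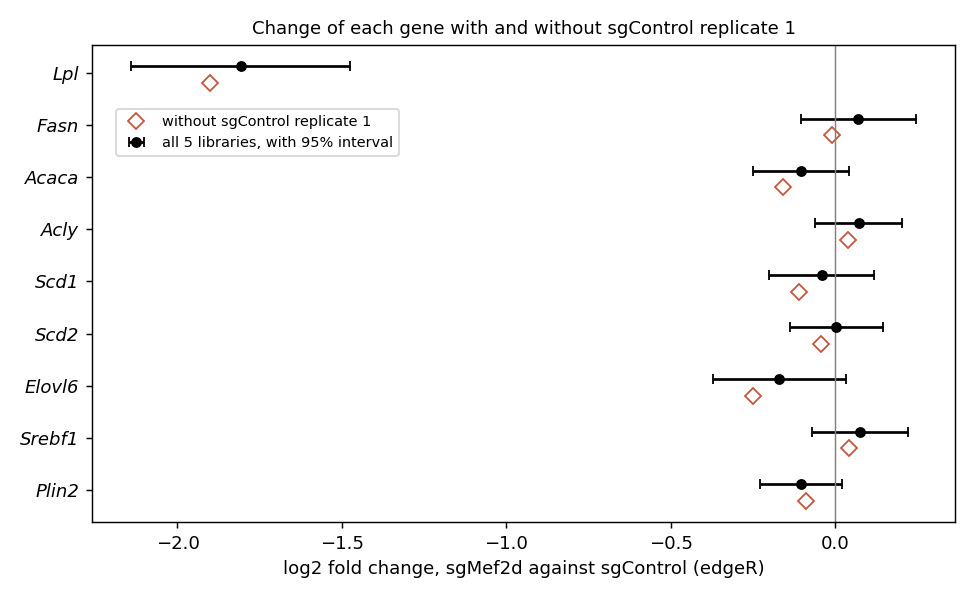
Log2 fold change of sgMef2d against sgControl for the 9 genes with its 95% interval (edgeR), with all 5 libraries and without sgControl replicate 1. Lpl was at -1.81, with no test since it was chosen for its low level, and the intervals of the other 8 genes together ran from -0.37 to 0.25 with all libraries.

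Replicate 1 of sgControl had the lowest level of the 3 controls for 7 of the 8 genes, and also for Lpl. The share of all genes lowest in it was not counted. Its deviation had a correlation of -0.338 with transcript length over 10264 genes, so the count is not particular to these genes. Against the mean of replicates 2 and 3, replicate 1 was at 83.6% for Fasn, 84.1% for Elovl6, 85.7% for Scd1 and 88.8% for Acaca, at 82.0% for Lpl, and at 103% for Plin2. Without this library 3 of the 8 genes (Acaca, Scd1 and Elovl6) passed the threshold, all lower in sgMef2d, in a fit in which 29.4% of all genes passed and 14.8% were lower. Whether these 3 genes were called thus depended on a single sgControl library. The sgControl libraries kept in that fit had length correlations of 0.404 and 0.467, against -0.218 and -0.272 in the sgMef2d libraries. With each library's length and GC trend removed, Acaca was at -0.04 (adjusted p 0.627), Scd1 at -0.0044 (0.97) and Elovl6 at -0.10 (0.427). The part of transcript length in these calls was not tested.

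Levels between genes were compared per kilobase of merged exons. In sgControl they ran from 214 CPM per kilobase for Scd2 and 149 for Plin2, through 68.9 for Acly, 67.9 for Scd1 and 58.2 for Fasn, to 18.8 for Srebf1, 14.2 for Elovl6 and 8.72 for Acaca, with Lpl lowest at 2.82. Fasn was below Acly and Scd1 in each of the 5 libraries, whereas Acly and Scd1 exchanged their order between libraries. In sgMef2d Lpl was at 0.793 CPM per kilobase. Lpl stood at percentile 33.8 of all genes listed in sgControl and at 16.8 in sgMef2d, whereas Scd2 stood at percentile 98.7 in sgControl. With the longest transcript as the length, Plin2 came before Scd2, Acaca came before Elovl6, and Scd1 and Fasn were at 66.7 and 66.5 in sgMef2d, so these neighbours have no fixed order. The 9 genes together took between 0.319% and 0.355% of the counts in every library.

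**Figure D3:**
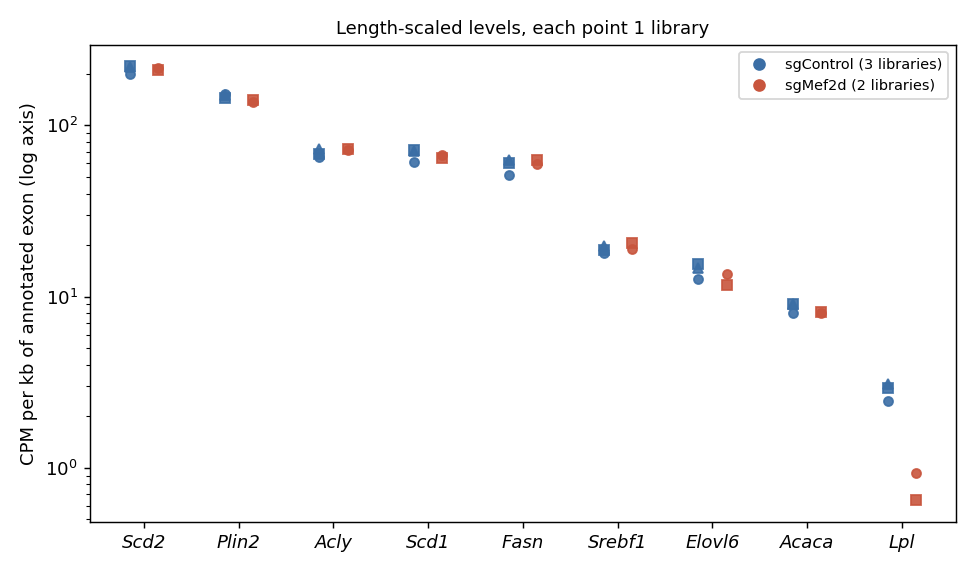
Level of the 9 genes per kilobase of merged exons, in CPM per kilobase on a log axis, for the sgControl and sgMef2d libraries. Scd2 and Plin2 were highest (214 and 149 in sgControl) and Lpl lowest (2.82 in sgControl and 0.793 in sgMef2d).

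Genes with related roles were taken from 12 lists, from lipoprotein lipase handling to beta oxidation. Of their 202 genes, 156 were listed in the count table and 154 were tested beside Lpl. Of these, 11 passed the threshold (7.14%, against 7.95% of all genes), 6 higher and 5 lower in sgMef2d. The median log2 fold change of the 154 genes was 0.0018. The share of genes called was thus near that of all genes. Without sgControl replicate 1, 39 of the genes passed, where 29.4% of all genes did. With sgMef2d replicate 1 or 2 left out 3 passed, where 1.88% and 1.83% of all genes did.

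Among proteins that bind, carry or cut lipoproteins with lipoprotein lipase, 2 of 15 genes tested beside Lpl passed the threshold, both higher, against 3.67% of all genes tested. In the fit without sgControl replicate 1, 4 were higher and 4 lower, against 29.4% of all genes in either direction. Sdc1, a heparan sulfate proteoglycan of the epithelial surface, was at 280, 267 and 269 CPM in sgControl and at 349 and 359 CPM in sgMef2d (log2 fold change 0.38, adjusted p 0.00177). Lipg, endothelial lipase, a relative of Lpl that acts mainly on phospholipids, was at 34.3, 35.0 and 30.7 CPM in sgControl and at 48.4 and 45.2 CPM in sgMef2d (0.49, adjusted p 0.00389). Both were above every sgControl library, opposite in direction to Lpl. Angptl4, an inhibitor of lipoprotein lipase, was at 0.19 on the log2 scale (adjusted p 0.123), and at 0.24 without sgControl replicate 1 (adjusted p 0.000395). Other genes of the list did not pass either, such as Lmf2 at 0.23 (adjusted p 0.113) and Sort1 at -0.56 (adjusted p 0.198). Without sgControl replicate 1 they were at 0.15 (adjusted p 0.0115) and -0.68 (adjusted p 0.0236). Without sgMef2d replicate 2 Sdc1 lost the call (adjusted p 0.0739), and without sgMef2d replicate 1 Lipg lost it (adjusted p 0.0935).

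Of 8 tested genes of fatty acid uptake and binding, 2 rose and 1 fell, where 7.95% of all genes passed. When sgControl replicate 1 was left out, 3 were higher and 1 lower, where 29.4% passed. Cav1, the main protein of caveolae, was at 121, 123 and 123 CPM in sgControl and at 183 and 180 CPM in sgMef2d (0.57, adjusted p 0.000118). Got2, a mitochondrial aminotransferase that also occurs at the plasma membrane, rose by 0.22 (adjusted p 0.0453). Fabp4, a fatty acid carrier abundant in adipocytes, fell from 3.80, 2.98 and 2.42 CPM to 1.18 and 1.48 CPM (-1.25, adjusted p 0.0231), which rests on 78, 42 and 33 counts against 20 and 22. Cav1 kept its call with any library left out. Fabp4 lost it without sgMef2d replicate 1 (adjusted p 0.243) or 2 (0.129), and Got2 lost it without either of these (0.281 and 0.394), without sgControl replicate 2 (0.15) or with library totals in place of TMM (0.0536).

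In the lists of enzymes that surround fatty acid synthesis, 0 or 1 gene passed in each, where 7.95% of all genes passed. In the list of acetyl-CoA and NADPH supply 1 of 12 genes passed, Acss2, which makes acetyl-CoA from acetate, at 5.06, 4.83 and 5.65 CPM in sgControl and 2.70 and 3.50 CPM in sgMef2d (-0.74, adjusted p 0.0368). Among 4 genes of cytosolic fatty acid synthesis, Fasn and Acaca included, 0 passed in edgeR, DESeq2 or limma-voom and 1 had an unadjusted p below 0.05 (23.2% of all genes did), and Acacb, the mitochondrial acetyl-CoA carboxylase, was at -0.45 (adjusted p 0.191). Of 9 desaturase genes and partners, Fads2, the delta-6 desaturase of polyunsaturated fatty acids, rose from 197, 205 and 212 CPM to 242 and 244 CPM (0.25, adjusted p 0.0209). Of 11 elongation genes, Hacd4, a 3-hydroxyacyl-CoA dehydratase, fell from 24.5, 23.0 and 23.8 CPM to 14.8 and 14.6 CPM (-0.69, adjusted p 0.00098). Hacd4 kept its call with any library left out. Without sgMef2d replicate 1 or 2 the adjusted p was 0.335 and 0.112 for Acss2, and 0.21 and 0.269 for Fads2. Without sgControl replicate 2 it was 0.0631 for Acss2 and 0.0879 for Fads2, and without sgControl replicate 3 it was 0.0796 for Acss2. DESeq2 gave 0.0871 for Acss2. Without sgControl replicate 1, 1 gene of acetyl-CoA and NADPH supply, 1 of cytosolic synthesis, 4 desaturase genes and 3 elongation genes passed, where 29.4% of all genes did.

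In the lists of regulators, acyl-CoA metabolism, triglycerides and droplets, 0 or 1 gene passed in each, where 7.95% of all genes passed. Of 22 regulators of lipid synthesis, Insig1, which retains the SREBP complex in the endoplasmic reticulum and is itself an SREBP target, fell from 73.7, 82.7 and 78.1 CPM to 65.8 and 62.1 CPM (-0.29, adjusted p 0.0313). Srebf2, the gene of the sterol-directed SREBP, was at -0.02 (adjusted p 0.87). Among 13 acyl-CoA synthetases and thioesterases, Acsl4, which activates arachidonic acid, fell from 239, 251 and 245 CPM to 196 and 190.3 CPM (-0.34, adjusted p 0.00389). Among 14 genes of triglyceride synthesis, Dgat2, which catalyses the last step, rose from 16.5, 16.8 and 16.6 CPM to 20.6 and 21.6 CPM (0.34, adjusted p 0.0407). Of 12 genes of the droplet and of lipolysis, Plin2 included, 0 passed in edgeR, DESeq2 or limma-voom and 1 had an unadjusted p below 0.05 (23.2% of all genes did). Without sgMef2d replicate 1 or 2 the calls of Insig1 (adjusted p 0.152 and 0.336), Acsl4 (0.0707 and 0.111) and Dgat2 (0.208 and 0.359) were lost. Without sgControl replicate 2 or 3 those of Insig1 (0.132 and 0.0587) and Dgat2 (0.111 and 0.0872) were lost as well. DESeq2 also lost Dgat2 (0.137). Without sgControl replicate 1, 4 regulators, 4 acyl-CoA genes, 4 triglyceride genes and 2 droplet genes passed, where 29.4% of all genes did.

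**Figure D4:**
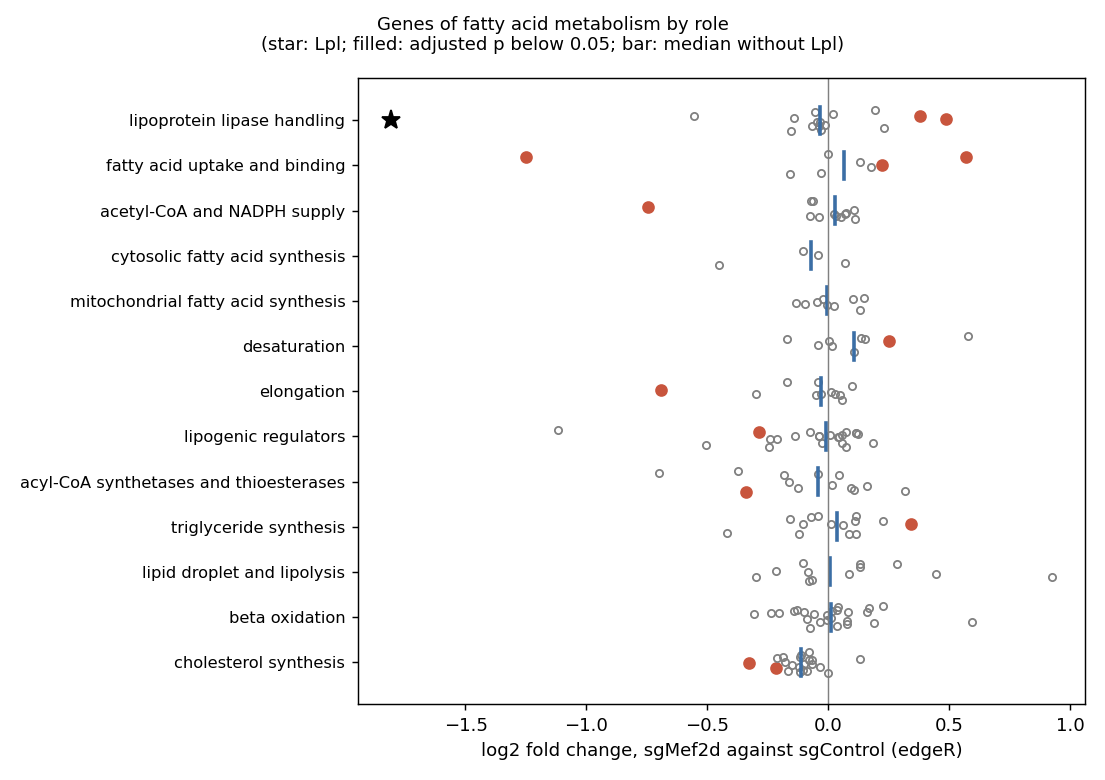
Log2 fold change of sgMef2d against sgControl for every gene tested in each list, by role, with the median of each list without Lpl. Lpl stood at -1.81, the list medians ran from -0.11 (cholesterol synthesis) to 0.11 (desaturation), and filled points are the genes past an adjusted p of 0.05.

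Cholesterol synthesis, which SREBP proteins also control, was set beside these lists. Of its 21 genes 2 passed, both lower, where 4.28% of all genes were lower, and 6 passed without sgControl replicate 1, all lower, where 14.8% were. Hmgcs1, which makes HMG-CoA, fell from 224, 229 and 234 CPM to 199 and 195 CPM (-0.22, adjusted p 0.0363), and Idi1, an isomerase of isoprenoid synthesis, fell from 86.9, 81.9 and 77.2 CPM to 66.9 and 63.8 CPM (-0.33, adjusted p 0.0169). The median log2 fold change of the list was -0.11, against 0.00311 over all genes tested. Of its 21 genes, which are not independent of each other, 20 were below 0. Of the 21, 12 lay below all sgControl libraries, against 20.5% of all genes tested. Without sgMef2d replicate 1 or 2 the adjusted p was 0.247 and 0.361 for Hmgcs1, and 0.123 and 0.246 for Idi1. Without sgControl replicate 2 it was 0.133 for Hmgcs1 and 0.0539 for Idi1, and without sgControl replicate 3 it was 0.1 for Hmgcs1. With a replicate block the log2 fold change of Hmgcs1 was -0.20 (adjusted p 0.11). The difference between the lists was not tested.

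The genes whose pattern over the 5 libraries was most like that of Lpl, by the root mean square difference of centred log2 CPM among 8037 genes, were Enpp2 (0.274), Klhl30 (0.285), Lbp (0.408), Gas6 (0.443) and Prex2 (0.443). Their log2 fold changes were -1.50, -2.32, -1.05, -1.07 and -1.01. The likeness uses the same contrast as the choice of Lpl and is a description.

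Lpl and Fabp4 are also known from adipocytes, and Lpl from macrophages, so markers of other cell types were read beside them. Of 10 adipocyte markers 3 were among the genes analysed here, with summed levels of 9.44 to 11.6 CPM in sgControl and 9.11 to 9.56 CPM in sgMef2d. Fabp4 was the only one of them past the threshold, where 7.95% of all genes passed, and its call was lost without either sgMef2d library. Pparg was at -0.50 (adjusted p 0.357) and Lipe at 0.28 (adjusted p 0.343). Of 8 macrophage markers 4 were analysed, summing to 39.2 to 45.6 CPM in sgControl and 34.0 to 35.4 CPM in sgMef2d. Of these 4, 1 passed, where 4.28% of all genes were lower: Cd14 fell by 0.35 on the log2 scale (adjusted p 0.0473). The call of Cd14 was lost without either sgMef2d library, with log2 fold changes of -0.40 and -0.31. It was also lost without sgControl replicate 2 (0.0516), in DESeq2 (0.0606), in limma-voom (0.0548) and with upper quartile scaling (0.0611). The other 3, at far lower levels, were above 0 without passing, with Csf1r at 0.15 (adjusted p 0.751), Cd68 at 0.48 (adjusted p 0.488) and Lyz2 at 1.48 (adjusted p 0.173). Of 8 endothelial markers 1 was analysed, Egfl7, at 0.514 to 1.07 CPM and 0.353 to 0.875 CPM. Their part in the values of Lpl was not tested.

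Of 12 mammary epithelial markers 10 were analysed, summing to 4479 to 4676 CPM in sgControl and 4732 to 4946 CPM in sgMef2d, and 4 passed the threshold, where 7.95% of all genes did. Krt14 rose by 1.04 on the log2 scale and Cldn4 by 0.26, while Krt18 fell by 0.26. Krt5, a basal keratin, was at or under 3 counts in every sgControl library (0.146, 0 and 0.0734 CPM) and at 15.3 and 14.2 CPM in sgMef2d. Of the 10, 5 were higher and 2 lower without sgControl replicate 1, where 29.4% of all genes passed. Of 8 fibroblast markers 6 were analysed, summing to 642 to 769 CPM in sgControl and 607 to 649 CPM in sgMef2d, and 3 passed, where 7.95% of all genes did. Col3a1 (1.45) and Dcn (1.23) were higher on the log2 scale and Col1a2 (-0.54) was lower. After sgControl replicate 1 was left out, 3 were higher and 3 lower, where 29.4% of all genes passed. Of 11 striated muscle markers 2 were analysed, summing to 68.3 to 70.4 CPM and 75.3 to 75.5 CPM, with Tnnt2 at 0.14 (adjusted p 0.187) and Acta1 at -0.93 (adjusted p 0.137, and 0.0149 without sgControl replicate 1). In bulk RNA, fewer cells with a high Lpl level and less Lpl mRNA per cell cannot be told apart.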

How the data were processed

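Libraries of poly(A) RNA from Cas9-expressing EpH4 cells were made with strand marking and sequenced. Per the labels, the processing used CASAVA, STAR and Subread on GRCm38; the methods name GENCODE version 22. The authors deposited raw counts per gene without normalization, after a low-count filter: every gene listed reached 11 counts in a library. Identifiers matched GENCODE M21 for 12934 of 12934 genes. 0 columns were left unused.

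Counts were analysed with edgeR 4.0.16 in R 4.3.3, with TMM factors of 0.996 to 1.00, the expression filter by group (12483 genes) and the quasi-likelihood test without covariates, adjusted by Benjamini-Hochberg over all genes, with a threshold of 0.05. The intervals are 95% from the fit. DESeq2 1.42.0 and limma-voom 3.58.1, other filters and normalizations, leaving out each library, and a replicate block were alternatives. The removal of each library's length and GC trend (loess span 0.3) was chosen after seeing the data. The code was tested on simulated data.

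The members and lists were chosen with earlier results of these data known. Named were the 9 members, in each list up to 4 genes past the threshold or else the most abundant gene, the 5 genes most like Lpl (average log2 CPM of at least 4), Mef2d and the most abundant gene of each marker list. Other genes were named to account for counts. Intervals and floors (3 counts) cover counting error only.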

Additional observations from a re-analysis of the deposited data

How the results depend on the processing

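Across 15 alternatives, 467 of 523 values of the named genes kept their direction and their side of the threshold, 41 were no longer past it, 9 newly passed and 6 changed sign. Cav1 and Hacd4 passed in all 16 settings. With each library left out in turn, the genes changed ranged from 234 to 3639, the 8 fatty acid genes past the threshold from 0 to 3 and the pathway genes past it from 3 to 39, and the log2 fold change of Lpl from -2.12 to -1.58. The log2 fold changes of Fasn (-0.0108 to 0.13), Scd1 (-0.11 to 0.0013), Scd2 (-0.0422 to 0.0276) and Egfl7 (-1.10 to 0.19) crossed 0. With library totals in place of TMM, Scd2 was at -0.0044. With the length and GC trend removed, 1616 genes, 1 of the 8 (Plin2) and 19 pathway genes passed. DESeq2 called 804 genes and limma-voom 942. The cause of these shifts was not tested. Fits with 1 sgMef2d library assume that it varies like the controls. By the labels, same-numbered libraries share only a number. The correlations of their deviations were 0.0113 and -0.000917 over 12483 genes. The deviations of the 2 sgMef2d libraries mirror each other, so these correlations cannot decide whether libraries were paired. The fit with a replicate block, which drops sgControl replicate 3 from the contrast, called 1253 genes, 0 of the 8 and 16 pathway genes, with Lpl at -1.75. Genes near 3 counts per library are limited by depth.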

Other observations

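Of 25 genes of fatty acid oxidation tested, 0 passed in edgeR (7.95% of all genes did), DESeq2 or limma-voom, 2 had an unadjusted p below 0.05 (23.2% of all genes did), and the median log2 fold change was 0.01. With sgControl replicate 1 left out, 3 passed, where 29.4% of all genes did. Cpt1a, which admits long-chain fatty acids to mitochondria, was at 0.23 (adjusted p 0.0606), and Hadha, a subunit of the trifunctional protein, at 0.08 (adjusted p 0.427). Of 9 genes of mitochondrial fatty acid synthesis 0 passed by these tools and 1 had an unadjusted p below 0.05, beside the same shares of all genes, and Ndufab1, its acyl carrier protein, was at 0.15 (adjusted p 0.192). With sgControl replicate 1 left out, Cpt1a was at 0.21 (adjusted p 0.00315) and Ndufab1 at 0.17 (adjusted p 0.00741).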
